A study of Mus musculus with 18 samples.

Results

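Guanylate-binding proteins (GBPs) and immunity-related GTPases (IRGs) were examined in mouse colon by RNA sequencing. The 10 genes were taken by symbol from a table of 35976 gene symbols: Gbp2, Gbp3, Gbp4, Gbp5, Gbp7 and Gbp9 of the GBP family, and Iigp1, Igtp, Irgm1 and Irgm2 of the IRG family. The table held 18 libraries of colon tissue collected on day 2, in 3 groups of 6. Mice of the ISM012-042 group had TNBS colitis, an acute inflammation raised by a hapten, and were treated with ISM012-042, a gut-restricted inhibitor of prolyl hydroxylases (PHD), the oxygen-sensing enzymes that target hypoxia-inducible factor. The vehicle group had TNBS colitis and was treated with vehicle. The sham group stood for colon without TNBS colitis. Strain, sex, age, dose and route were not given in the sources used here, nor was it stated that each library came from a separate mouse, and p-values therefore describe only how these samples spread, which may be technical.

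GBPs and IRGs are interferon-inducible GTPases of cell-autonomous defence. They are induced mainly by interferon-gamma and to a varying degree by type I interferon, in part through transcription factors of the IRF family. GBPs coat the vacuoles and surfaces of intracellular bacteria and parasites and promote inflammasome activation, and IRGs are recruited to pathogen vacuoles and disrupt them. Within the IRGs, Irgm1, Irgm2 and Igtp (also called Irgm3) are regulators that sit on host membranes and hold effector IRGs such as Iigp1 (Irga6) inactive there.

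In GRCm38.p6, the RefSeq assembly of mm10, the genes lay in separate clusters. Gbp5 (chromosome 3, 142496934 to 142522344), Gbp7 (142530336 to 142550151), Gbp3 (142560016 to 142573213) and Gbp2 (142620663 to 142638008) lay in one stretch of chromosome 3. Gbp9 (chromosome 5, 105076464 to 105110357) and Gbp4 (105115767 to 105139586) lay close together on chromosome 5. Igtp (chromosome 11, 58199556 to 58207592) and Irgm2 (58214977 to 58222783) lay close together on chromosome 11, with Irgm1 elsewhere on it (48865245 to 48871420), and Iigp1 lay on a further chromosome.

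RefSeq promoter windows, 250 bases before to 50 after a start site, were matched for 7 of the 10 genes, all but Gbp4, Gbp9 and Iigp1. The 5 genes that fell in at least 1 comparison are shown here from 180 bases before to 20 bases after the first base of the transcript, 5′ to 3′ on the gene's own strand. Capitals mark GAAA, any 2 bases and GAAA, or on the other strand TTTC, any 2 bases and TTTC, the core letters of the interferon-stimulated response element that IRF proteins bind. The stretches are chr3:142559864-142560063 (plus strand), chr3:142530156-142530355 (plus), chr11:58199376-58199575 (plus), chr11:48871401-48871600 (minus) and chr11:58214797-58214996 (plus).
Gbp3: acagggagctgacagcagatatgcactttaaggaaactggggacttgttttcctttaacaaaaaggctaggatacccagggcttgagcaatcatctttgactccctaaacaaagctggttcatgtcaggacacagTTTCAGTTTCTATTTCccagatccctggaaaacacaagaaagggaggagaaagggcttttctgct
Gbp7: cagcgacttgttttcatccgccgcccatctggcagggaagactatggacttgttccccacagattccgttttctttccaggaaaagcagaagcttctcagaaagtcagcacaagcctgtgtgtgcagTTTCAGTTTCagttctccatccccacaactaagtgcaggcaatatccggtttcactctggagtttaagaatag
Igtp: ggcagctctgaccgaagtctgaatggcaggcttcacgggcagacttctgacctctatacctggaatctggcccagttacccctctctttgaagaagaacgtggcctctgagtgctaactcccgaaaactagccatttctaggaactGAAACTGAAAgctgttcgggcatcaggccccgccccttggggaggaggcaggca
Irgm1: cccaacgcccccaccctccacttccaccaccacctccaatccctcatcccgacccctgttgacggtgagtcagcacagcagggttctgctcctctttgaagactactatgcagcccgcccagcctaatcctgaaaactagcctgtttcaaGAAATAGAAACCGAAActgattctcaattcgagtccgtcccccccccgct
Irgm2: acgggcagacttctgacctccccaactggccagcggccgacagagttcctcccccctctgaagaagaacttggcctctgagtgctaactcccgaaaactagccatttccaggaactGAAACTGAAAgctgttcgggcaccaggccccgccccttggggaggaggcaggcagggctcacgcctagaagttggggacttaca

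Each of the 7 genes with a window held the interferon-stimulated response letters, which occurred in 3.44% of the 32851 promoter windows of the mouse genome table. The match began 59 bases upstream of the start in Gbp2, 53 in Gbp7, 34 in Igtp, 64 in Irgm2 and 165 in Gbp5. Gbp3 had 2 overlapping matches, at 45 and 39 bases, and Irgm1 had 2, at 30 and 24 bases. A further start site of Gbp3 had none. The letters TTCNNNGAA, those of the gamma-activated site, which read the same on both strands, were in 4 of the 7 genes (Gbp5, Gbp7, Igtp and Irgm2) and in 8.3% of all windows, and overlapped no match of the other motif in the 7 genes. In Igtp and Irgm2 this match lay just before the response element letters, at 45 and 75 bases upstream. The longest identical run between the stretches of these neighbours was 38 bases, and it did not hold the whole response element match. Just past a mismatch a further identical run followed in both stretches, and that run held the whole match. A match of letters is a description of the sequence and not a measured binding site.

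Each library summed to 1000000 TPM, a transcript abundance scaled to gene length and library total, so sequencing depth is unknown. Between 12681 and 14632 genes reached 1 TPM per library. Transcripts of 13 mitochondrial genes took 20.1 to 39.8% of the TPM under ISM012-042, 22.4 to 57.8% in vehicle and 29.4 to 42.6% in sham. The 9 epithelial markers were present in every group, with summed levels of 10517 to 12644 TPM under ISM012-042, 6502 to 14974 TPM in vehicle and 9426 to 15029 TPM in sham. Hoxb13, a marker of the distal colon, ranged from 0.329 to 219 TPM under ISM012-042, from 1.52 to 179 TPM in vehicle and from 9.05 to 288 TPM in sham. Its part in the results was not tested beyond a fit with Hoxb13 as a covariate.

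One library stood apart for these genes. Vehicle replicate 1 was the highest of its group for all 10 members, and the summed level of the 10 was 640 TPM in that library, against 93.9 to 154 TPM in the other 5 vehicle libraries, 70.1 to 217 TPM under ISM012-042 and 180 to 912 TPM in sham. Gbp2, Gbp4 and Iigp1 were higher in vehicle replicate 1 than in any other of the 18 libraries. Iigp1 reached 81.7 TPM there, against 2.81 to 5.63 TPM in the other vehicle libraries. Values without it are given beside the comparisons that it moved most.

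In some libraries with high member levels the summed markers of T and NK cells were also high. The T and NK cell list had 11 of 12 markers in the table, none of them at 0 in all libraries, with summed levels of 8.16 to 85.3 TPM under ISM012-042, 12.5 to 56.1 TPM in vehicle and 9.58 to 19.5 TPM in sham. Its highest vehicle value was in vehicle replicate 1, and its highest values under ISM012-042 were 85.3 TPM in replicate 3 and 40.0 TPM in replicate 2, the libraries that between them held the highest level of every member in that group. Gzmb, which encodes a cytotoxic granule protease, was 12.9 TPM in vehicle replicate 1, where the median of the vehicle group was 0.654 TPM. Not every marker rose there: the T cell marker Cd3e was 2.10 TPM, against a vehicle median of 2.18 TPM. Nkg7 was 4.62 TPM in that library, against a vehicle median of 3.02 TPM, and Ncr1 was 1.48 TPM, against 0.539 TPM. Ciita, the transactivator of MHC class II genes, was 24.8 TPM in ISM012-042 replicate 3, where the median of that group was 1.80 TPM. The 10 monocyte and macrophage markers also summed highest in those libraries under ISM012-042, at 1367 TPM in replicate 2 and 908 TPM in replicate 3, against 221 to 251 TPM in the other 4. They summed to 648 TPM in vehicle replicate 1, within the vehicle range of 112 to 1084 TPM, and to 105 to 332 TPM in sham. The 8 neutrophil markers differed between the groups without overlap of the colitis groups with sham, with sums of 41.2 to 6644 TPM under ISM012-042, 167 to 24786 TPM in vehicle and 6.19 to 25.8 TPM in sham. In sham the T and NK list stood lowest in replicate 3, at 9.58 TPM, although the members summed to 396 TPM there. The part of these cells in the level of the members was not tested.

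All 10 members had at least 1 TPM in each of the 18 libraries and all were tested. Irgm1 had the highest mean level in every group, with a range of 27.5 to 51.2 TPM and a median of 33.9 TPM under ISM012-042, 33.0 to 133 TPM with a median of 41.2 TPM in vehicle, and 51.7 to 240 TPM with a median of 139.8 TPM in sham. It lay above Gbp2, the next gene, in 6 of 6 ISM012-042, 5 of 6 vehicle and 6 of 6 sham libraries. In sham, Gbp2 and Igtp came next and did not differ from each other beyond their spread: the mean difference of log2(TPM + 1) was 0.02 ± 0.60 (SD, n = 6 libraries). Igtp and Irgm2 differed there by 0.11 ± 0.30, and Gbp5 and Gbp9 at the low end by 0.11 ± 0.64. Gbp3 took place 8 of 10 in the order under ISM012-042 and place 5 of 10 in sham, and the neighbours Iigp1, Gbp3 and Gbp9 at that end of the ISM012-042 order differed by 0.06 ± 0.48 and 0.07 ± 0.41 from one to the next. The inflammasome-promoting Gbp5 had the lowest mean in both colitis groups, at 3.14 ± 1.60 TPM under ISM012-042 and 3.33 ± 3.56 TPM in vehicle (SD, n = 6), or 1.89 ± 0.63 TPM without vehicle replicate 1 (n = 5). In vehicle it did not differ from Gbp9 beyond the spread, with Gbp9 higher by 0.28 ± 0.44 on the log2 scale and in 4 of 6 libraries.

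**Figure D1:**
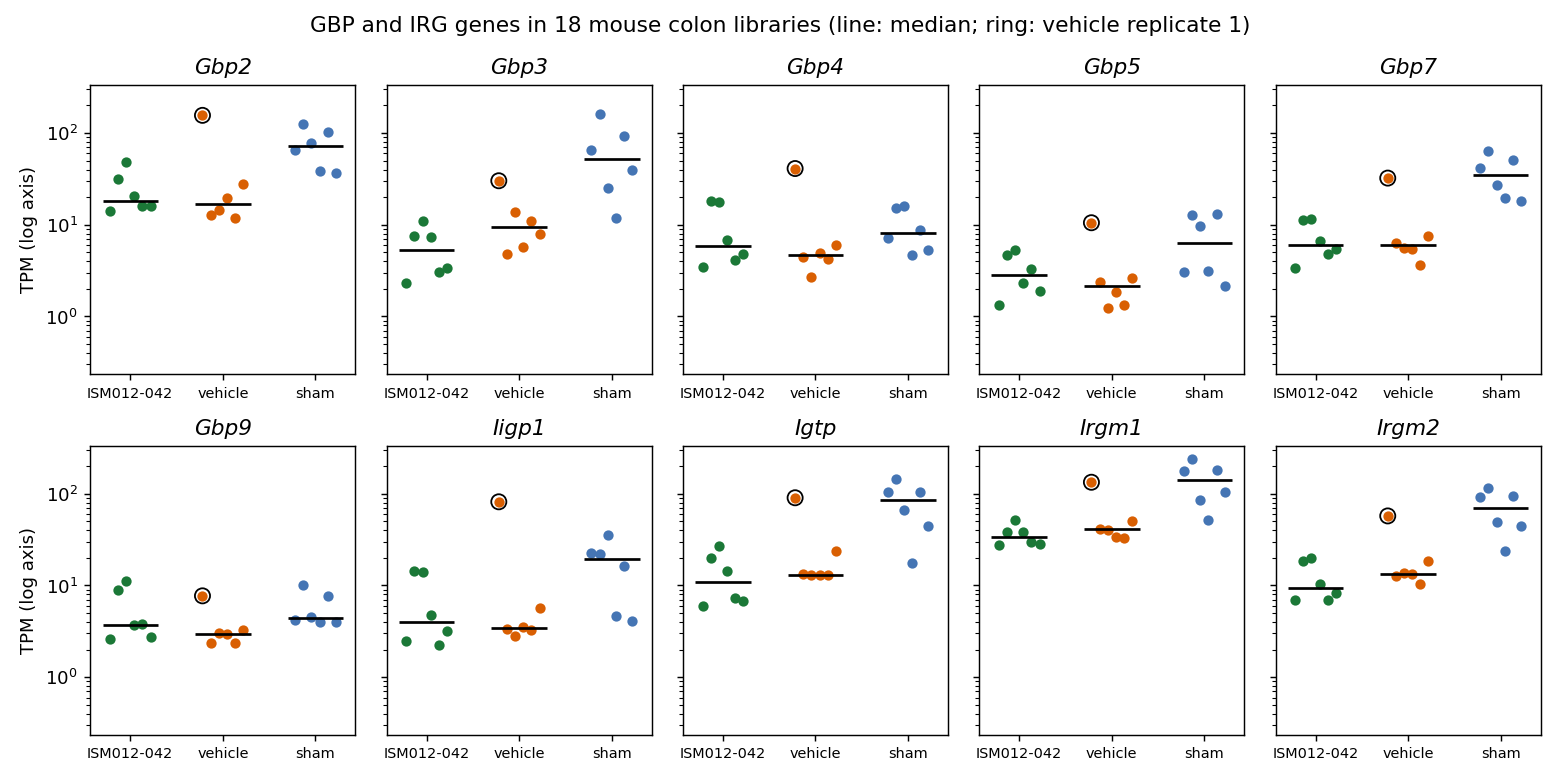
TPM on a log axis for each of the 10 genes in every library, with groups from left to right ISM012-042, vehicle and sham (6 points each), a line at the group median and a ring around vehicle replicate 1. The ringed point lies above the other 5 vehicle libraries for every gene, and the sham points of most genes spread over a wide range.

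The comparison of vehicle with sham addresses the effect of TNBS colitis on these genes. Of the 10 members 4 fell and none rose (limma, Benjamini-Hochberg adjusted p under 0.05), where 4.13% of the 14129 genes tested fell and 0.326% rose. Of all calls 7.30% were higher, and with median-ratio scaling 33.0%. Those that fell were the membrane regulators Irgm1 and Irgm2 and the guanylate-binding proteins Gbp3 and Gbp7. Neutrophil markers were higher in every vehicle library than in every sham library, and their part in these falls was not tested. All 10 fold changes, which are differences of mean log2(TPM + 1) and understate the change of low genes, were negative, with a median of -1.39 against -0.07 over all genes tested. A negative sign was held by 58.7% of all genes. At an unadjusted p under 0.05, 7 of 10 members were lower, as were 14.9% of all genes. No member had all vehicle libraries below all sham libraries, as 1.91% of all genes had. Tissue RNA cannot tell fewer cells of an expressing type from less RNA per cell.

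Gbp7, which in mouse cells supports defence against intracellular bacteria, ranged from 3.65 to 32.2 TPM in vehicle with a median of 5.99 TPM, and from 18.3 to 64.4 TPM in sham with a median of 34.7 TPM. It fell by 1.99 ± 0.42 on the log2 scale (SE, n = 6 per group, adjusted p = 0.0127). The 2 groups overlapped only through vehicle replicate 1, since the other 5 vehicle libraries reached at most 7.63 TPM. Irgm2 ranged from 10.3 to 57.3 TPM in vehicle with a median of 13.5 TPM, and from 23.9 to 116 TPM in sham with a median of 70.04 TPM. It fell by 1.77 ± 0.42 (adjusted p = 0.0216). Gbp3 ranged from 4.74 to 30.2 TPM in vehicle with a median of 9.49 TPM, and from 11.9 to 160 TPM in sham with a median of 51.8 TPM. It fell by 2.13 ± 0.54 (adjusted p = 0.0315). Irgm1 fell by 1.33 ± 0.36 (adjusted p = 0.0397). For these 3 genes too the groups overlapped, and for Irgm1 and Irgm2 only through vehicle replicate 1.

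The other 6 members did not pass. Igtp stood at -1.68 ± 0.54 (adjusted p = 0.0856) and Gbp2 at -1.44 ± 0.51 (adjusted p = 0.126). The IRG effector Iigp1, which damages parasite vacuoles in mouse cells, stood at -0.97 ± 0.72, with a 95% interval of -2.48 to 0.53. Gbp5 stood at -0.95 ± 0.44, Gbp9 at -0.56 ± 0.32 and Gbp4 at -0.35 ± 0.53. Gbp4 and Gbp9, the pair on chromosome 5, therefore had the smallest fold changes of the 10. Without vehicle replicate 1, Gbp2 and Igtp also passed, at -1.97 (adjusted p = 0.00348) and -2.10 (adjusted p = 0.0122), so that 6 of 10 fell, while 884 of all 14129 genes fell in place of 584. Iigp1 stood at -1.67 without that library (adjusted p = 0.0663), and Gbp4 at -0.85 (adjusted p = 0.229). With Hoxb13 as a covariate or without vehicle replicate 2 only Gbp7 and Irgm2 passed, where Gbp3 stood at -1.93 and -1.94 and Irgm1 at -1.13 and -1.29, and only Gbp7 did when vehicle replicate 4 or 5 or sham replicate 1, 2 or 5 was left out.

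**Figure D2:**
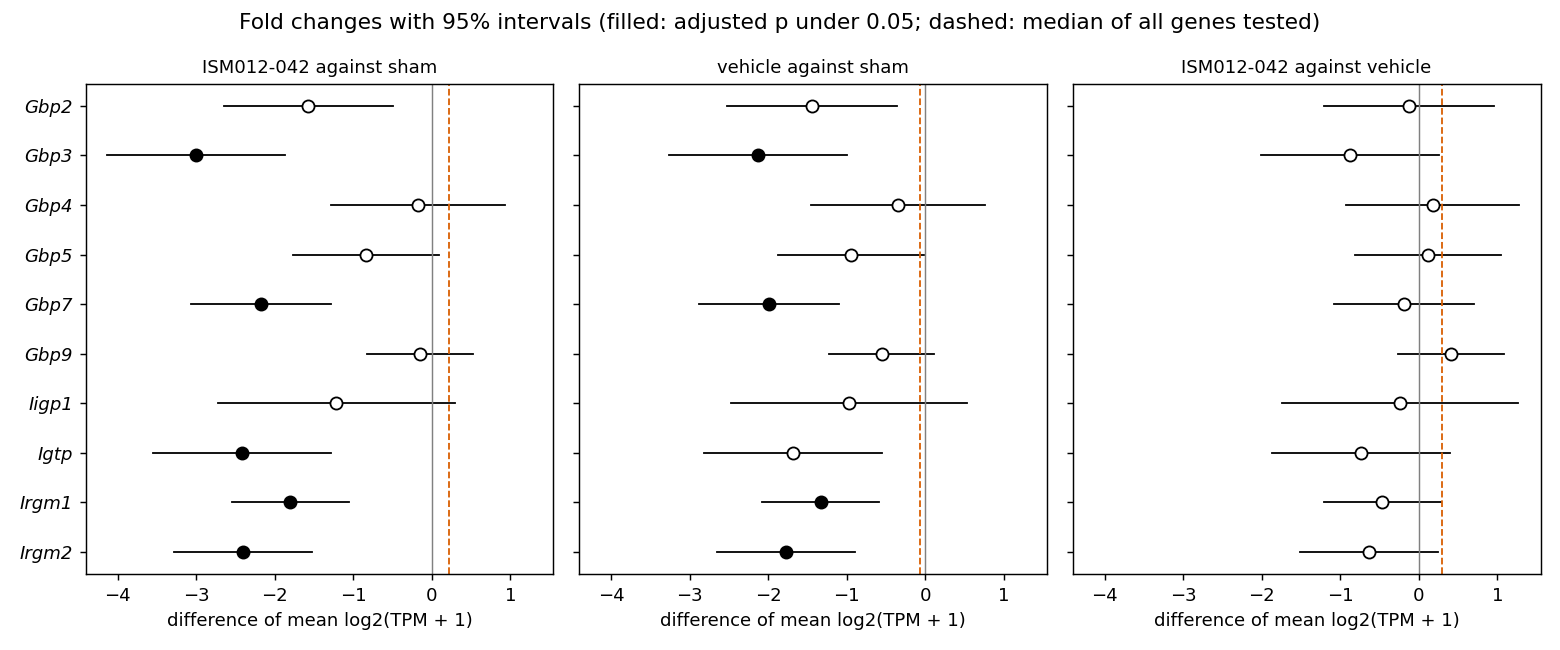
Difference of mean log2(TPM + 1) with its 95% interval for each gene in the 3 comparisons, with filled points for adjusted p under 0.05 and a dashed line at the median of all 14129 genes tested. Filled points are Gbp3, Gbp7, Irgm1 and Irgm2 for vehicle against sham, these and Igtp for ISM012-042 against sham, and none for ISM012-042 against vehicle.

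Colon with TNBS colitis and ISM012-042 treatment was also compared with sham. Of the 10 members 5 fell and none rose, Gbp3, Gbp7, Igtp, Irgm1 and Irgm2, where 0.871% of all genes tested fell and 0.545% rose. Of all calls 38.5% were higher, and with median-ratio scaling 20.1%. At an unadjusted p under 0.05, 6 of 10 members were lower, as were 4.44% of all genes, and all 10 were negative, as were 22.9%. The median fold change of the 10 was -1.69, against 0.21 over all genes, and median-ratio scaling moved the median of all genes to 0.03. This comparison shares its sham libraries with that of vehicle and is no independent evidence of direction.

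Irgm2 ranged from 6.87 to 19.9 TPM under ISM012-042 with a median of 9.34 TPM, against the sham range of 23.9 to 116 TPM. It fell by 2.40 ± 0.42 on the log2 scale (SE, n = 6 per group, adjusted p = 0.00752). Gbp3 ranged from 2.31 to 10.98 TPM with a median of 5.34 TPM under ISM012-042, against 11.9 to 160 TPM in sham. Its fall of 3.003 ± 0.54 was the most negative fold change of the 10 (adjusted p = 0.00896). For Gbp3, Gbp7, Irgm1 and Irgm2 every ISM012-042 library lay below every sham library, as for 1.05% of all genes. Igtp, the third of the regulators, ranged from 5.98 to 26.9 TPM with a median of 10.9 TPM under ISM012-042, and from 17.7 to 146 TPM with a median of 85.6 TPM in sham. It fell by 2.42 ± 0.54 (adjusted p = 0.0322) and its groups overlapped only through sham replicate 4. It did not pass when ISM012-042 replicate 1, 4, 5 or 6 or sham replicate 1, 2, 3 or 5 was left out. Gbp7 fell by 2.17 ± 0.42 (adjusted p = 0.0143) and Irgm1 by 1.80 ± 0.36 (adjusted p = 0.0149).

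Gbp2, a guanylate-binding protein that targets bacterial and parasite vacuoles, ranged from 14.3 to 47.8 TPM under ISM012-042 with a median of 18.3 TPM, and from 36.9 to 125 TPM in sham with a median of 71.4 TPM. It stood at -1.57 ± 0.51 (adjusted p = 0.129) and passed in 5 of 28 alternatives, among them median-ratio scaling and the fit without vehicle replicate 1 (adjusted p from 0.0217 to 0.244 over the 28). Iigp1 stood at -1.21 ± 0.72 and Gbp5 at -0.83 ± 0.44. Gbp4 ranged from 3.44 to 18.2 TPM under ISM012-042 with a median of 5.84 TPM, and from 4.67 to 15.9 TPM in sham with a median of 8.04 TPM. Its fold change was -0.18 ± 0.53, with a 95% interval of -1.28 to 0.93. Gbp9 ranged from 2.62 to 11.2 TPM under ISM012-042 with a median of 3.72 TPM, and from 3.98 to 10.1 TPM in sham with a median of 4.37 TPM. Its fold change was -0.15 ± 0.32, with an interval of -0.82 to 0.52. The signs of both turned with Hoxb13 as a covariate, at 0.15 for Gbp4 and 0.02 for Gbp9. In ISM012-042 replicates 2 and 3, Gbp4 stood above every sham library, and Gbp9 did so in replicate 3.

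The comparison of ISM012-042 with vehicle addresses the effect of the compound within colitis. None of the 10 members passed, and none had an unadjusted p under 0.05, with adjusted p from limma between 0.325 and 0.866. Over all genes none passed either, 0.127% were lower and 18.9% higher at an unadjusted p under 0.05. The median fold change of the members was -0.21, against 0.30 over all genes, and 7 of 10 were negative, where 7.91% of all genes were. With median-ratio scaling the median of the members was -0.48, against 0.02 over all genes. Under that scaling 9 of 10 members were negative, as were 44.7% of all genes.

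The sign of this difference rested in part on vehicle replicate 1. Without it 4 of 10 members were negative, as were 7.52% of all genes, and the median of the members was 0.30, against 0.33 over all genes. Gbp2 took a value of 0.40, Gbp7 of 0.20 and Iigp1 of 0.45, in place of -0.13, -0.19 and -0.24. The 4 members that kept a negative sign were Gbp3 at -0.58, Igtp at -0.32, Irgm2 at -0.30 and Irgm1 at -0.18. With all libraries Gbp3 stood at -0.88 ± 0.54, with a 95% interval of -2.01 to 0.26, Igtp at -0.74 ± 0.54 and Irgm2 at -0.63 ± 0.42. The ranges for Gbp3 were 2.31 to 10.98 TPM under ISM012-042 and 4.74 to 30.2 TPM in vehicle, and the groups overlapped. Gbp4, Gbp5 and Gbp9 stood at 0.17 ± 0.53, 0.11 ± 0.44 and 0.41 ± 0.32. Median-ratio scaling turned the sign of Gbp4 and Gbp5, at -0.10 each. The intervals of the 10 members, the narrowest of which ran from -0.26 to 1.08 for Gbp9, leave room for changes of over 2-fold in at least 1 direction.

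The make-up of the transcript pool of the 10 genes was described by shares. TPM is scaled to gene length, so members can be set against each other within a library. The share of Gbp4 in their summed TPM averaged 6.78 ± 2.19% for ISM012-042, 4.38 ± 1.29% for vehicle and 2.10 ± 1.05% for sham (mean ± SD of 6 libraries each). Gbp9 took 4.23 ± 0.90% under ISM012-042, 2.29 ± 0.60% in vehicle and 1.28 ± 0.50% in sham. Gbp3 took 4.496 ± 1.09% under ISM012-042, 7.33 ± 3.63% in vehicle and 11.4 ± 4.36% in sham. Irgm1 was the largest part in each group, at 31.7 ± 7.09%, 33.0 ± 6.56% and 28.1 ± 4.25% in ISM012-042, vehicle and sham. By these means the chromosome 5 pair held a larger part and Gbp3 a smaller part in the colitis groups than in sham. For Gbp3 the spreads of vehicle and sham overlapped. A larger share is not a rise in level. The fold changes of Gbp4 and Gbp9 against sham were -0.35 and -0.56 in vehicle and -0.18 and -0.15 under ISM012-042. These shares were not tested.

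**Figure D3:**
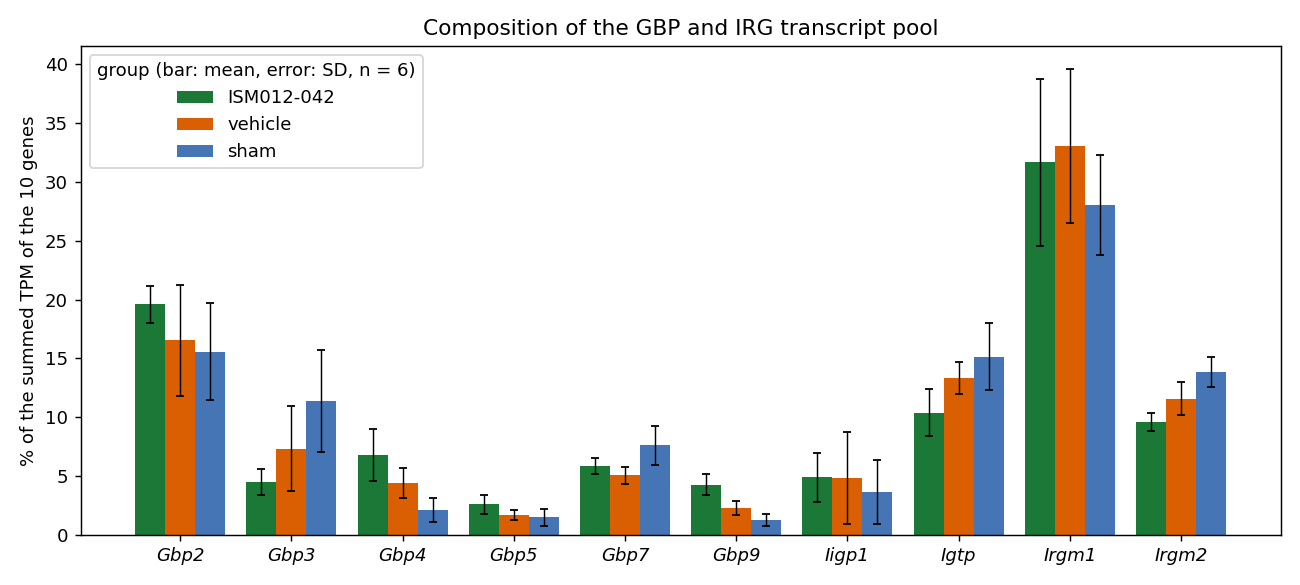
Mean share of each gene in the summed TPM of the 10 genes, in percent, for ISM012-042, vehicle and sham, with error bars for the SD over 6 libraries. The mean shares of Gbp4 and Gbp9 are higher in the colitis groups than in sham (6.78% and 4.23% under ISM012-042, 2.10% and 1.28% in sham). That of Gbp3 is lower (4.496% and 11.4%).

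The members varied together from library to library within the groups. Over the 45 pairs of members the correlation of their deviations from the group means, across 18 libraries, had a median r of 0.85 and ran from 0.61 for Gbp3 with Gbp5 to 0.98 for Igtp with Irgm2. These libraries share the tissue, the processing and the scaling of TPM. Vehicle replicate 1, the highest of its group for all 10 members, gives them a large deviation in common. No r of the pairs was taken without that library. Igtp shared 7.8% of its 75-base transcript windows with other genes, first Irgm2, and Gbp7 shared 11.3%, so the values of these genes are uncertain where reads fit several genes, and the part of this in their likeness was not tested. In sham 9 of the 10 members had an SD of log2(TPM + 1) above the 90th percentile of all genes tested, as did 8 in vehicle and 3 under ISM012-042. The vehicle SDs include replicate 1, where Iigp1 was 81.7 TPM, against 2.81 to 5.63 TPM in the other vehicle libraries. The vehicle count therefore does not describe the spread of those other libraries. Sham replicate 2 was the highest of its group for 7 members, and sham replicates 4 and 6 were the lowest for 5 members each.

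Outside the 10, the genes whose deviations were most like the mean of the members, among 14119, were Gbp2b, Nlrc5, Psmb9, Tgtp2, Gbp10, Tgtp1, Tap1 and Psme2, with r between 0.92 and 0.96 over 18 libraries. Without vehicle replicate 1 and sham replicate 2, the libraries farthest from the median, r lay between 0.84 and 0.94 for these 8. Gbp2b and Gbp10 are further guanylate-binding proteins and Tgtp1 and Tgtp2 further IRGs. Nlrc5 is the transactivator of MHC class I genes, Psmb9 and Psme2 encode parts of the immunoproteasome and its activator, and Tap1 is a subunit of the peptide transporter of class I presentation. Gbp2b averaged 25.1 TPM under ISM012-042, 59.0 TPM in vehicle and 98.1 TPM in sham. The vehicle mean rests on replicate 1, at 260.0 TPM, and was 18.8 TPM over the other 5 vehicle libraries, so the order of the colitis groups turned without it.

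Other members of the 2 families were listed together with Gvin1, a further GTPase. Of 17 listed genes 13 were tested, and 1 fell in vehicle against sham, a count close to the share of 4.13% over all genes. The 1 call was Gm12250 (Irgb10), an IRG that acts on bacterial membranes in mouse cells, at -2.10 ± 0.58 (limma, adjusted p = 0.0477). It stood at 1.35 to 5.51 TPM under ISM012-042, 3.46 to 28.7 TPM in vehicle and 4.95 to 87.4 TPM in sham. Under ISM012-042 against sham it fell by 3.07 ± 0.58 (adjusted p = 0.0122), again as the 1 call, where 0.871% of all genes fell. Gbp6, Gbp10 and Gbp2b stood at -1.47 ± 0.47, -1.29 ± 0.44 and -1.62 ± 0.61 in vehicle and at -1.74 ± 0.47, -1.58 ± 0.44 and -1.99 ± 0.61 under ISM012-042, both against sham, without passing. They passed in both comparisons without vehicle replicate 1, which made 4 of 13. Of all genes 6.26% then fell in vehicle against sham and 1.13% in ISM012-042 against sham. The median of the 13 was -0.93 in ISM012-042 against sham and -0.73 in vehicle against sham, against 0.21 and -0.07 over all genes. In ISM012-042 against vehicle none passed and the median was -0.20, against 0.30 over all genes. The 4 genes of smallest unadjusted p there were Irgq at 0.43 ± 0.16, Gm12250 at -0.97 ± 0.58, 9930111J21Rik1 at 0.43 ± 0.39 and Ifi47 at -0.66 ± 0.60.

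Interferon-gamma itself, Ifng, was under the filter, at 0 to 0.204 TPM under ISM012-042, 0 to 0.537 TPM in vehicle and 0 to 0.22 TPM in sham, and its highest value was in vehicle replicate 1. Of 15 tested genes listed for its receptor, signalling and regulation, 4 fell in vehicle against sham, where 4.13% of all genes fell. The list also held Irf9 and Stat2, which act chiefly in type I interferon signalling. Irf9 fell by 1.22 ± 0.22, Stat2 by 1.43 ± 0.32, the receptor chain Ifngr1 by 0.72 ± 0.16 and the transcription factor Irf1 by 1.05 ± 0.29 (limma, adjusted p between 0.0051 and 0.0452). In ISM012-042 against sham, where 0.871% of all genes fell, 2 fell, Irf9 by 1.54 ± 0.22 and Stat2 by 1.60 ± 0.32. Irf1 at -1.05 ± 0.29 and Batf2 at -1.24 ± 0.36 did not pass there. Without vehicle replicate 1, 6 of the 15 fell in vehicle against sham, as did 6.26% of all genes. None passed in ISM012-042 against vehicle, where Il18r1, Jak1, Irf9 and Ifngr1 stood at 0.33 ± 0.17, 0.39 ± 0.23, -0.32 ± 0.22 and 0.23 ± 0.16.

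Of 20 other interferon-gamma induced genes none passed in vehicle against sham. At an unadjusted limma p under 0.05, 5 were lower and none higher, where 14.9% of all genes were lower. Their median was -0.34, against -0.07 over all genes. Tapbp, Zbp1, Cd274 and Tap2 had the smallest p, at -0.65 ± 0.20, -1.58 ± 0.50, -1.41 ± 0.46 and -0.56 ± 0.21. In ISM012-042 against sham, where 0.871% of all genes fell, the nucleic acid sensor Zbp1 fell by 2.76 ± 0.50 (limma, adjusted p = 0.00902). Cxcl10 at -2.73 ± 0.71, Cd274 at -1.64 ± 0.46 and Tap1 at -1.24 ± 0.45 did not pass. None passed in ISM012-042 against vehicle, with Zbp1 at -1.18 ± 0.50, Serping1 at 0.42 ± 0.24, Cxcl10 at -0.96 ± 0.71 and Nos2 at -0.98 ± 0.73. Of 19 genes that act with GBPs and IRGs, Rnf213, Trim21 and Casp1 fell in vehicle against sham by 1.67 ± 0.41, 1.01 ± 0.25 and 0.68 ± 0.19, where 4.13% of all genes fell. Casp4, the sensor of bacterial lipopolysaccharide, stood there at -0.58 ± 0.19. In ISM012-042 against sham Rnf213 fell by 1.73 ± 0.41, while Casp4, Trim21 and Casp1 stood at -0.70 ± 0.19, -0.87 ± 0.25 and -0.58 ± 0.19. None passed in ISM012-042 against vehicle, with Atg16l1, Atg7, Gabarapl1 and Aim2 at 0.36 ± 0.17, 0.43 ± 0.21, 0.28 ± 0.20 and 0.37 ± 0.27.

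Some of these list counts moved with the scaling. With median-ratio scaling 4 of the 13 further GTPase genes and 6 of the 15 signalling genes fell in ISM012-042 against sham. So did 4 of the 20 other induced genes and 5 of the 19 partners. The share of all genes that fell was then 4.38% in place of 0.871%. In vehicle against sham the counts were then 1, 5, 1 and 2, with 7.23% of all genes in place of 4.13%. In ISM012-042 against vehicle this scaling put the median of the signalling genes at -0.31 in place of 0.01 and that of the partners at -0.19 in place of 0.12, and none passed. Without vehicle replicate 1, 4 of the 15 signalling genes, with Irf1 and Batf2, fell in ISM012-042 against sham, as did 1.13% of all genes. In vehicle against sham 3 of the 20 other induced genes, Tapbp, Cd274 and Zbp1, then fell, as did 6.26% of all genes. In ISM012-042 against vehicle the median of the further GTPase genes was 0.32 without that library, against 0.33 over all genes.

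The level of the GBP and IRG genes and that of type I interferon effector genes did not always go together. Of 19 tested type I effectors 11 fell in vehicle against sham and 17 in ISM012-042 against sham (limma), where 4.13% and 0.871% of all genes fell. Their medians were -2.12 and -3.19, against -0.07 and 0.21 over all genes. In ISM012-042 against vehicle none passed, with a median of -1.15 against 0.30 over all genes. Rtp4, Xaf1 and Rsad2, all interferon-induced antiviral or regulatory genes, fell by 2.93 ± 0.33, 2.70 ± 0.37 and 3.74 ± 0.54 in ISM012-042 against sham and by 1.79 ± 0.33, 1.97 ± 0.37 and 2.66 ± 0.54 in vehicle against sham. Oasl2 fell by 3.63 ± 0.51 in ISM012-042 against sham, and Oasl1 by 1.64 ± 0.36 in vehicle against sham. In ISM012-042 against vehicle Rtp4, Ifit1, Isg15 and Oasl2 had the smallest p, at -1.15 ± 0.33, -1.72 ± 0.61, -1.78 ± 0.63 and -1.43 ± 0.51, each with an adjusted p of 0.233. In vehicle replicate 1 the mean log2(TPM + 1) of the 10 members was 5.52, inside the sham range of 3.73 to 5.81 and above the 2.93 to 3.53 of the other vehicle libraries. The mean of the 19 effectors in that library was 4.34, inside the vehicle range of 3.76 to 4.87. Within sham both were high in replicate 2 (members 5.81, effectors 7.81), replicate 5 (5.41 and 7.23) and replicate 1 (5.02 and 7.06). Both were lowest in sham replicate 4, at 3.73 and 4.10. The orders differed at sham replicate 3, with members at 4.91 and effectors at 4.30, and at sham replicate 6, with 4.15 and 6.33. The effectors of sham replicates 3 and 4 lay inside the vehicle range. In ISM012-042 replicate 3 the members stood at 4.22, the highest of that group, and the effectors at 3.18. Without vehicle replicate 1 the type I effectors in ISM012-042 against vehicle kept a median of -1.12, with 18 of 19 negative, while the median of the 10 members was 0.30 in place of -0.21.

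**Figure D4:**
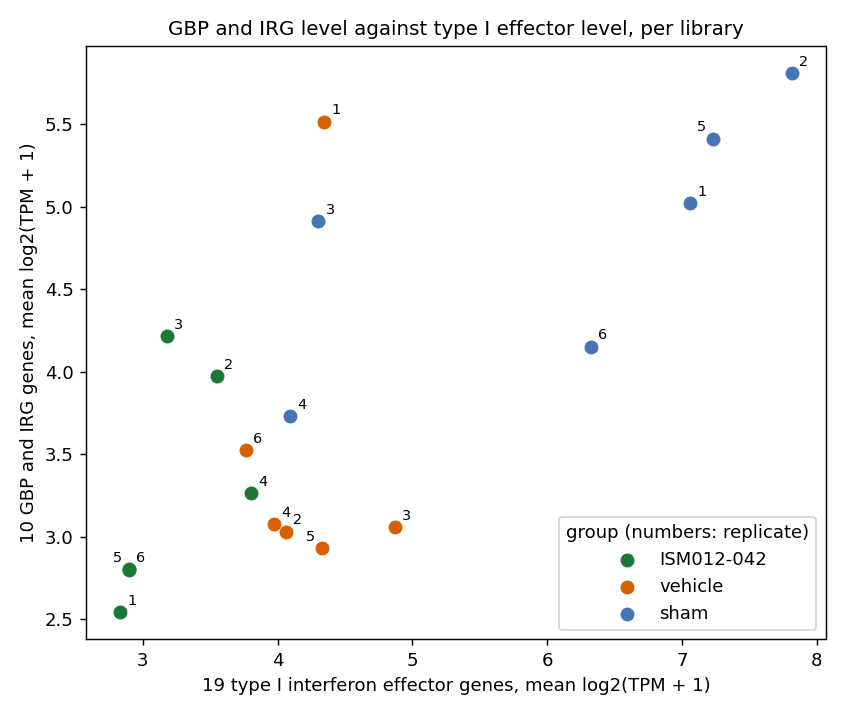
Mean log2(TPM + 1) of the 10 GBP and IRG genes (vertical axis) against that of 19 type I interferon effector genes (horizontal axis), 1 point per library, coloured by group and numbered by replicate. Vehicle replicate 1 (4.34, 5.52) and sham replicate 3 (4.30, 4.91) have high member levels at effector levels within the vehicle range of 3.76 to 4.87. Sham replicates 1, 2 and 5 are high on both axes, and sham replicate 4 is the lowest of its group on both.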

How the data were processed

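Total RNA of colon tissue was purified on RNeasy columns after homogenization in TRI Reagent, as the labels' protocols state. Gene-level TPM, made and deposited by the authors, formed 1 table. Per the submitters' processing notes, mm10 and DRAGEN 4.0.3 were used, with no role stated, and the annotation, the counting and the use of strand were not stated. The 18 columns matched samples by description, groups and replicate numbers came from titles, and no 2 libraries were identical.

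Values were transformed to log2(TPM + 1). The 14129 genes with at least 1 TPM in at least 6 libraries were fitted in limma 3.58.1 (R 4.3.3) with all 18 libraries, empirical Bayes with trend and robust settings, Benjamini-Hochberg adjustment over all of them and a threshold of 0.05. The function was tested on simulated data. The genes and lists were chosen with earlier results of these data known. Named are all 10 members, the 4 genes of smallest unadjusted p per list, Ifng, and the 8 genes most correlated with the members, and genes named outside this rule were chosen after their values were seen. One gene of the rule is not reported here. Outliers used Dixon's ratio in each group of 6. Coordinates and promoters are from RefSeq GRCm38.p6, and shared 75-base windows from GENCODE transcripts. Alternatives are in the closing section.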

Additional observations from a re-analysis of the deposited data

Results flagged for a closer look

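For 9 of the 10 members, vehicle replicate 1 was so far above the other 5 libraries of its group that its gap to the nearest of them, divided by the range of the group on the log2(TPM + 1) scale, passed Dixon's critical value of 0.625 for 6 samples. The ratio was 0.82 for Iigp1, 0.737 for Gbp9, 0.733 for Gbp4, 0.703 for Gbp5, 0.693 for Igtp and for Irgm1, 0.686 for Gbp7, 0.674 for Gbp2 and 0.666 for Irgm2. The exception was Gbp3, at 30.2 TPM in that library against a next value of 13.6 TPM. Over the 10 genes and 3 groups, 30 sets of 6 values were examined, and no other library passed. Chance flags about 1 set in 20, and because the members vary together these 9 results are not independent and come down to 1 library.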

How the results depend on the processing

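The count of members lower in vehicle than in sham, 4, became 2 in the fit on the compared groups only, 2 with Hoxb13 as a covariate and 2 with the replicate block. Leaving out 1 library at a time gave 1 to 6 in that comparison, 4 to 6 in ISM012-042 against sham (5 with all) and 0 to 0 in ISM012-042 against vehicle. No count of members higher moved from 0 in any alternative. Equal replicate numbers did not pair the libraries: their deviations correlated from -0.38 to 0.61, above 0.1 in 1 to 3 of 6 pairs per comparison, and under the replicate block Gbp3 and Irgm1 were lost in vehicle against sham and Igtp in ISM012-042 against sham, with no other call of a member changed.

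Over 834 values of single members, 769 kept their direction and side of the threshold, 37 lost it, 8 gained it and 20 turned sign. With Hoxb13 as a covariate Gbp4 turned to 0.19 in vehicle against sham, to 0.15 in ISM012-042 against sham and to -0.034 in ISM012-042 against vehicle, Gbp9 to 0.023 in ISM012-042 against sham and Gbp5 to -0.054 in ISM012-042 against vehicle. In the last comparison Gbp4 and Gbp5 turned to -0.10 and -0.096 with median-ratio scaling and to -0.11 and -0.16 with quantile normalization. Leaving out 1 library gave there -0.35 to 0.40 for Gbp2, -0.062 to 0.67 for Gbp4, -0.026 to 0.45 for Gbp5, -0.37 to 0.20 for Gbp7 and -0.50 to 0.45 for Iigp1, and in ISM012-042 against sham -0.41 to 0.010 for Gbp4 and -0.36 to 0.0095 for Gbp9. Gbp7 passed against sham under every alternative run in both comparisons, and so did Gbp3, Irgm1 and Irgm2 under ISM012-042. Gbp5 and Gbp9 had no value with the minimum of 5 TPM. Over all genes, median-ratio scaling gave 1022 lower and 504 higher in vehicle against sham, in place of 584 and 46, and 619 and 156 in ISM012-042 against sham, in place of 123 and 77. Lists without vehicle replicate 1 or with median-ratio scaling were added after seeing the data. The cause of these shifts was not tested. Depth is unknown, so the precision of the low genes Gbp5 and Gbp9 is known only from the spread between libraries.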
